A study of Mus musculus with 6 samples.

Results

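Transcripts of 37 genes of glycolysis and of the response to low oxygen were followed in AtT-20 cells. This line comes from a mouse pituitary tumour and keeps the character of corticotropes, the cells that make corticotropin. The genes were given as a list of names, and every probe that the platform annotation assigns to one of them alone was taken. This gave 67 of the 45281 probes on the array, for 34 of the 37 genes. Hk2, Gpi1 and Eno1 have no probe in the annotation used here. The list holds 17 glycolytic enzymes, 4 glucose and lactate carriers, 3 pyruvate dehydrogenase kinases, and 13 genes of the hypoxia response, of which 3 sense oxygen and 10 are targets.

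All cells carried a stably transfected, doxycycline-inducible rat PAM-1, the granule enzyme peptidylglycine alpha-amidating monooxygenase. Clones 14, 6_1 and 6_2 were each kept in control medium or in doxycycline medium for 48 h, and total RNA was hybridised to Illumina MouseWG-6 v2.0 BeadChips. Each medium thus has 3 arrays with 1 per clone, and no clone has a repeat culture. The doxycycline concentration is 4 µg/ml in the treatment protocol and 4 mg/ml in the sample descriptions. Cells without the transgene were not analysed here, so an effect of the drug and an effect of induced PAM-1 cannot be told apart. The labels do not say if clones 6_1 and 6_2 arose apart. With 1 culture per clone and medium, p-values measure only the spread between these arrays.

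Glycolysis turns glucose into pyruvate in the cytosol and yields ATP without oxygen, and lactate dehydrogenase then makes lactate from the pyruvate. The pyruvate dehydrogenase kinases hold back pyruvate dehydrogenase, and with it the use of pyruvate in mitochondria. When oxygen is short, the prolyl hydroxylases Egln1 and Egln3 stop marking the transcription factor subunit Hif1a for destruction, and the factor then switches on glycolytic enzymes, carriers and genes such as Vegfa and Car9. Hif1a is governed largely at the protein level, which an RNA array does not measure.

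The factor is known to bind the core letters ACGTG or GCGTG in DNA, and promoters are shown first because these letters do not come from the arrays. Genes were listed in part as targets of this factor, so the share of these letters is not independent of the list. Windows of 300 bases, from 250 before to 50 after an annotated start, were taken from RefSeq for GRCm38.p6 and matched 34 of the 37 genes with 52 windows. Both strands were searched, so that CACGT and CACGC also count, and CACGTG counts once on each strand. At least 1 match stood in 39 of the 52 windows (75.0%), in 21 of 28 windows of glycolytic enzymes and in 12 of 16 of hypoxia genes. Among 32851 windows of all genes the share was 43.8%, and among the 21263 of protein-coding genes 49.3%. The listed windows are richer in G and C, with a median of 62.7% against 56.3% for protein-coding genes, and the part of base composition in this difference was not tested. The first listed window is printed for Pdk1 and Kdm3a, the genes of smallest p among the kinases and hypoxia genes, for Ldha, the enzyme with up to 7 matches in a window, and for Car9, which read the other way from most targets. They lie at chr2:71872974-71873273 on the plus strand, chr6:71632868-71633167 on the minus strand, chr7:46845554-46845853 on the plus strand and chr4:43506776-43507075 on the plus strand. Sequences run 5′ to 3′ along the gene's strand, and capitals mark the matches.
Pdk1: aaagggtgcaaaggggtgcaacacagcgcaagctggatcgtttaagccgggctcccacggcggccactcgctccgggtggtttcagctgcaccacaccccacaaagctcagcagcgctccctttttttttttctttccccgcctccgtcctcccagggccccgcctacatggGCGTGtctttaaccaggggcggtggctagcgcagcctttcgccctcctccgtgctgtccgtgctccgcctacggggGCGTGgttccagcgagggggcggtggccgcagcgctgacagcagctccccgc
Kdm3a: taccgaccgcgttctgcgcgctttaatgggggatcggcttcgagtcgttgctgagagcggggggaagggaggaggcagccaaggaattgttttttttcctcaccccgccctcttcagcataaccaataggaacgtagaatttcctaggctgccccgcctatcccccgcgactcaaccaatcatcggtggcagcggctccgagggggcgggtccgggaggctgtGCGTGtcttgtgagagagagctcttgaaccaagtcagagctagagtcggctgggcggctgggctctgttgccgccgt
Ldha: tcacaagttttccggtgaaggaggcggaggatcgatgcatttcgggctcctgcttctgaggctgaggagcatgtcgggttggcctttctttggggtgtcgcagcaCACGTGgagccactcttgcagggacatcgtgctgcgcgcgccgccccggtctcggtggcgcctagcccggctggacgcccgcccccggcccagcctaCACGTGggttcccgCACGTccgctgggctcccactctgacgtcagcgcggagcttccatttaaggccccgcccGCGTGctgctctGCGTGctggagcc
Car9: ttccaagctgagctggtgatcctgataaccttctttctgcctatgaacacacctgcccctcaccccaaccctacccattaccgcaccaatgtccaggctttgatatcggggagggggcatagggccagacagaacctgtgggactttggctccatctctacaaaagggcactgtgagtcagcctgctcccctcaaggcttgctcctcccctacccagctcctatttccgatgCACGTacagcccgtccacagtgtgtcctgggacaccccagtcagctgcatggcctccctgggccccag
Pdk1 had 2 matches here, Kdm3a 1, Ldha 7 and Car9 1. No match stood in the other Pdk1 window or in the 2 other Kdm3a windows, whereas both Ldha windows held one, and Car9 has 1 window. A match describes these letters only and says nothing on binding in these cells.

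Between 16196 and 17149 probes per array were above background, at a detection p under 0.01. Every doxycycline array had fewer of them than the control array of its clone. Clone 6_1 in control medium lay far from the rest, at 56.5 on the first principal component (56.2% of the variance) against -33.7 to 18.7 for the others, so values that rest on clone 6_1 are given beside those of the other clones. The corticotrope markers Pomc, Tbx19, Crhr1, Neurod1 and Neurod4 were above background on 6 of 6 arrays, and Pcsk1 on 5. Pitx1 was at background on every array, as were Gh, Prl, Tshb, Lhb and Fshb of other pituitary cells, S100b, the fibroblast genes and Ptprc. Cga was above background on 1 array, 1 of 3 Aif1 probes on 2, and 1 of 2 probes of the endothelial gene Kdr on 6. No probe of the endothelial genes Pecam1 and Cdh5, or of Nr5a1 of other pituitary cells, was above background on at least 3 arrays. Pou1f1 of other pituitary cells and the leukocyte gene Cd68 have no probe.

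The pathway was well represented. Of the 67 probes, 45 were above background on all 6 arrays, 6 on 3 to 5, and 16 on none. A probe was tested when it was above background on at least 3 arrays, which left 51 probes for 30 genes. Ldhb, the lactate dehydrogenase subunit of oxidative tissues, the lactate carrier Slc16a1, the kinase Pdk2 and the collagen hydroxylase P4ha2 had no probe above background on any array. All values below are log2 normalised intensities, and differences are doxycycline minus control with their standard error (SE). A probe's level is set only against its own level on other arrays, because probes differ in brightness.

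No member probe passed the comparison of the media. With limma and clone as a block, 0 of 51 probes had an adjusted p under 0.05, against 53 of 16902 probes over the whole array (0.314%, with 0.124% lower and 0.189% higher), and the smallest adjusted p among the members was 0.0964, of a Pdk1 probe that was tested through the control arrays alone, and 0.103 otherwise. At an unadjusted p under 0.05 stood 14 member probes, 12 of them lower and 2 higher in doxycycline medium, or 27.5% of the members against 22.3% of all probes. The 3 arrays of one medium all lay on one side of the other 3 for 16 member probes (31.4%), against 24.5% of all probes. Both counts hold 2 probes, of Pdk1 and Bnip3, that were above background in control medium alone; such a probe had to differ to be tested, and its p supports nothing here. By the brightest probe of each gene, 24 of 30 genes read lower with doxycycline and 6 higher (21 lower with median scaling and 20 with cyclic loess), and the median difference was -0.14, against 50% lower and a median of 0.00 over 9196 genes. Of the 30 genes 14 were lower in all 3 clones (46.7%, against 24.4% of all genes). The 24, the 14 and the median of -0.14 all hold Bnip3, whose direction supports nothing for the same reason.

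**Figure D1:**
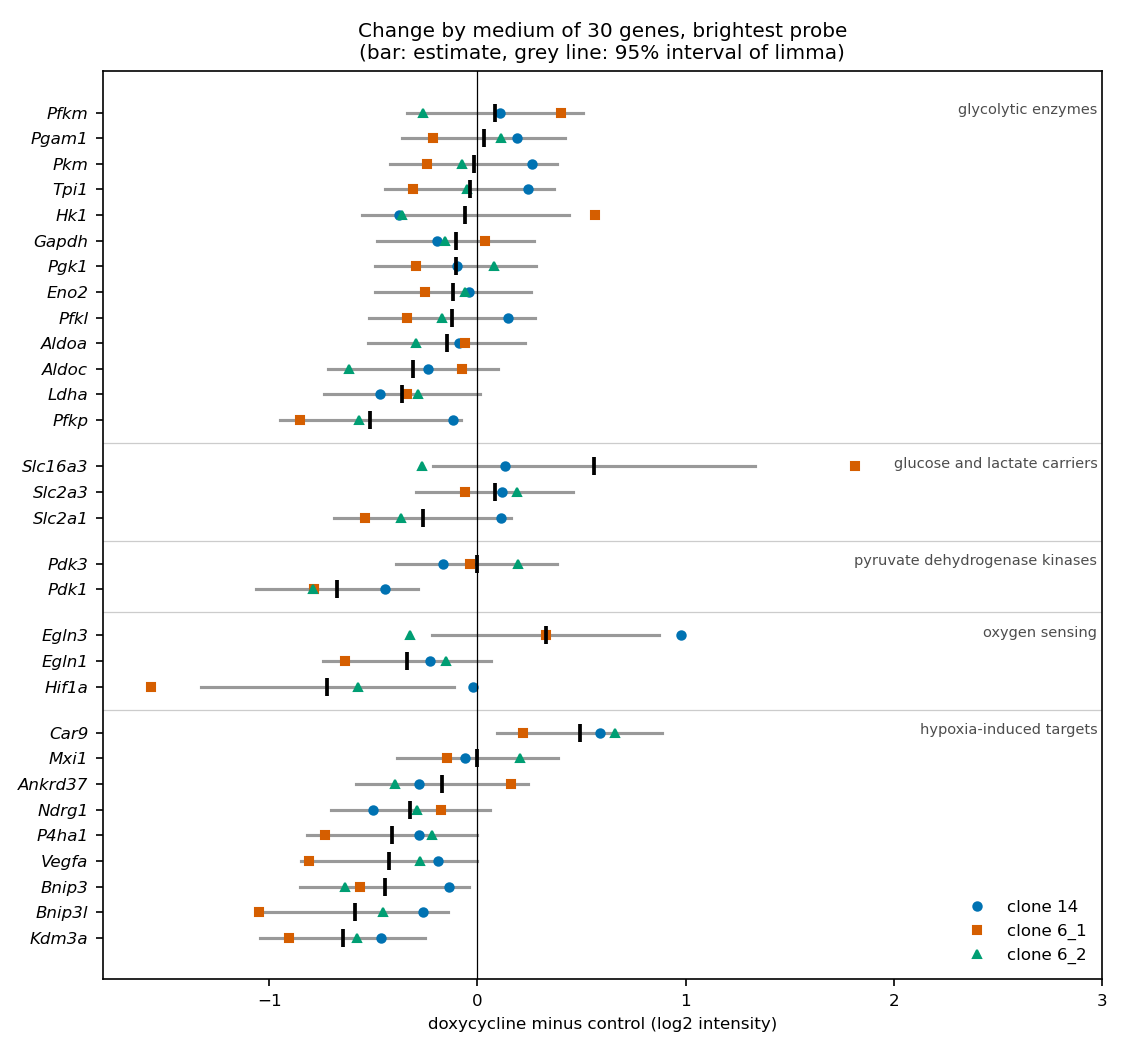
Difference between doxycycline and control medium (x axis, log2 intensity) for the brightest probe of 30 genes, grouped by role; symbols are the clones, black bars the fitted difference and grey lines its 95% interval. Of the 12 hypoxia genes 10 lie left of 0, as do 11 of the 13 enzymes (7 with median scaling), and 0 of the 30 passed after adjustment over all probes. The 10 include Bnip3, tested through the control arrays alone.

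Of 13 measured enzyme genes 11 read lower (7 with median scaling and 8 with cyclic loess), 5 of them in all clones, with a median difference of -0.11 and a range of -0.51 to 0.08. Of the 5, Aldoa, Eno2 and Ldha were not lower in every clone before normalisation. By clone the median was -0.09 (14), -0.24 (6_1) and -0.17 (6_2). With arrays scaled to a common median in place of quantile normalisation, the enzyme median was -0.00042. It was -0.16 without clone 14 and -0.24 with the trend of the change with gene span removed, so its size depends on the setting. With median scaling the median of all genes was -0.06.

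Pfkp, the platelet isoform of phosphofructokinase, which commits sugar to glycolysis, had the smallest p among the enzymes. Its brightest probe (ILMN_1237695) read 13.73, 14.33 and 14.16 in control and 13.62, 13.47 and 13.59 in doxycycline medium in clones 14, 6_1 and 6_2. All doxycycline arrays lay below all control arrays, but in clone 14 by little: the differences were -0.12, -0.85 and -0.57. The fitted difference of -0.51 (SE 0.19, 95% interval -0.95 to -0.08) did not pass (limma, adjusted p = 0.174), and it was -0.31 with median scaling. The other tested Pfkp probe read -0.41 (SE 0.17), again with no overlap between the media. The liver isoform Pfkl read -0.12 (SE 0.18), from 12.94, 13.30 and 13.03 to 13.09, 12.96 and 12.86, higher in clone 14 and lower in the other clones, and at -0.01 without clone 6_1. The muscle isoform Pfkm gave 0.08, 0.08 and 0.25 on its probes (SE 0.17 to 0.19, adjusted p from 0.379 to 0.815). Its brightest probe was lower in clone 6_2, at -0.26, and turned to -0.08 without clone 6_1.

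Ldha, the lactate dehydrogenase subunit that favours lactate formation, read 15.29, 15.13 and 15.17 in control and 14.82, 14.79 and 14.89 in doxycycline medium. The media did not overlap, and the clones were close to each other, with differences of -0.47, -0.34 and -0.29. The fitted difference of -0.36 (SE 0.17, 95% interval -0.74 to 0.01) did not pass (limma, adjusted p = 0.234), and it was -0.12 with median scaling. Its scanner signals of 29191 to 44964 lay below the array maxima of 68097 to 71549. Before normalisation they fell only in clone 14, from 44964 in control to 34857 in doxycycline medium. They rose from 30026 to 30810 in clone 6_1 and from 29191 to 30812 in clone 6_2. The lower readings of clones 6_1 and 6_2 thus appear only after normalisation. The same held for the brightest probes of Aldoa and Tpi1 in clones 6_1 and 6_2. For Aldoa the signals rose from 10673 to 12229 and from 12838 to 12901. It also held for Eno2, Pfkl, Gapdh and Pkm in clone 6_2 and for Pgk1 in clone 6_1. The signals of Pfkp and Aldoc fell in each clone before normalisation too.

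The aldolases split the sugar bisphosphate into trioses. Aldoc, the brain isoform, read 11.09, 10.91 and 11.29 in control and 10.86, 10.84 and 10.67 in doxycycline medium, a difference of -0.31 (SE 0.18, adjusted p = 0.329), or -0.15 without clone 6_2. Aldoa, the muscle isoform, read 13.79, 13.60 and 13.91 against 13.69, 13.54 and 13.62, a difference of -0.15 (SE 0.17, adjusted p = 0.613), and it turned to 0.0198 with median scaling. The control and doxycycline arrays of Aldoa overlapped, whereas those of Aldoc did not.

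The neuronal enolase Eno2 read 11.87, 12.22 and 12.02 in control and 11.83, 11.97 and 11.96 in doxycycline medium, at -0.12 (SE 0.17, adjusted p = 0.695), or -0.05 without clone 6_1. The remaining enzymes gave differences between -0.11 and 0.03 on their brightest probes: Gapdh, which oxidises glyceraldehyde phosphate, -0.10, the phosphoglycerate kinase Pgk1 -0.11, hexokinase Hk1 -0.06, triose phosphate isomerase Tpi1 -0.04, pyruvate kinase Pkm -0.02 and phosphoglycerate mutase Pgam1 0.03. With median scaling Tpi1, Gapdh, Pgk1 and Pkm turned higher, at 0.22, 0.17, 0.09 and 0.07. Hk1 joined -0.38 in clone 14 and -0.36 in clone 6_2 to 0.56 in clone 6_1, and it was -0.37 without clone 6_1, 0.10 without clone 14 and 0.09 without clone 6_2. Each of these enzymes turned its sign or moved by over 1.5 times when 1 clone or another was left out, so no direction is read from them. The main 95% intervals together ran from -0.56 to 0.44, so differences of that size in either direction are not resolved by 3 arrays a group. Hk1 gave different values on its probes: the dimmer one (ILMN_1245048) read 8.02, 7.84 and 8.17 in control and 8.44, 8.37 and 8.40 in doxycycline medium, at 0.40 (SE 0.17, adjusted p = 0.210) with no overlap between the media.

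**Figure D2:**
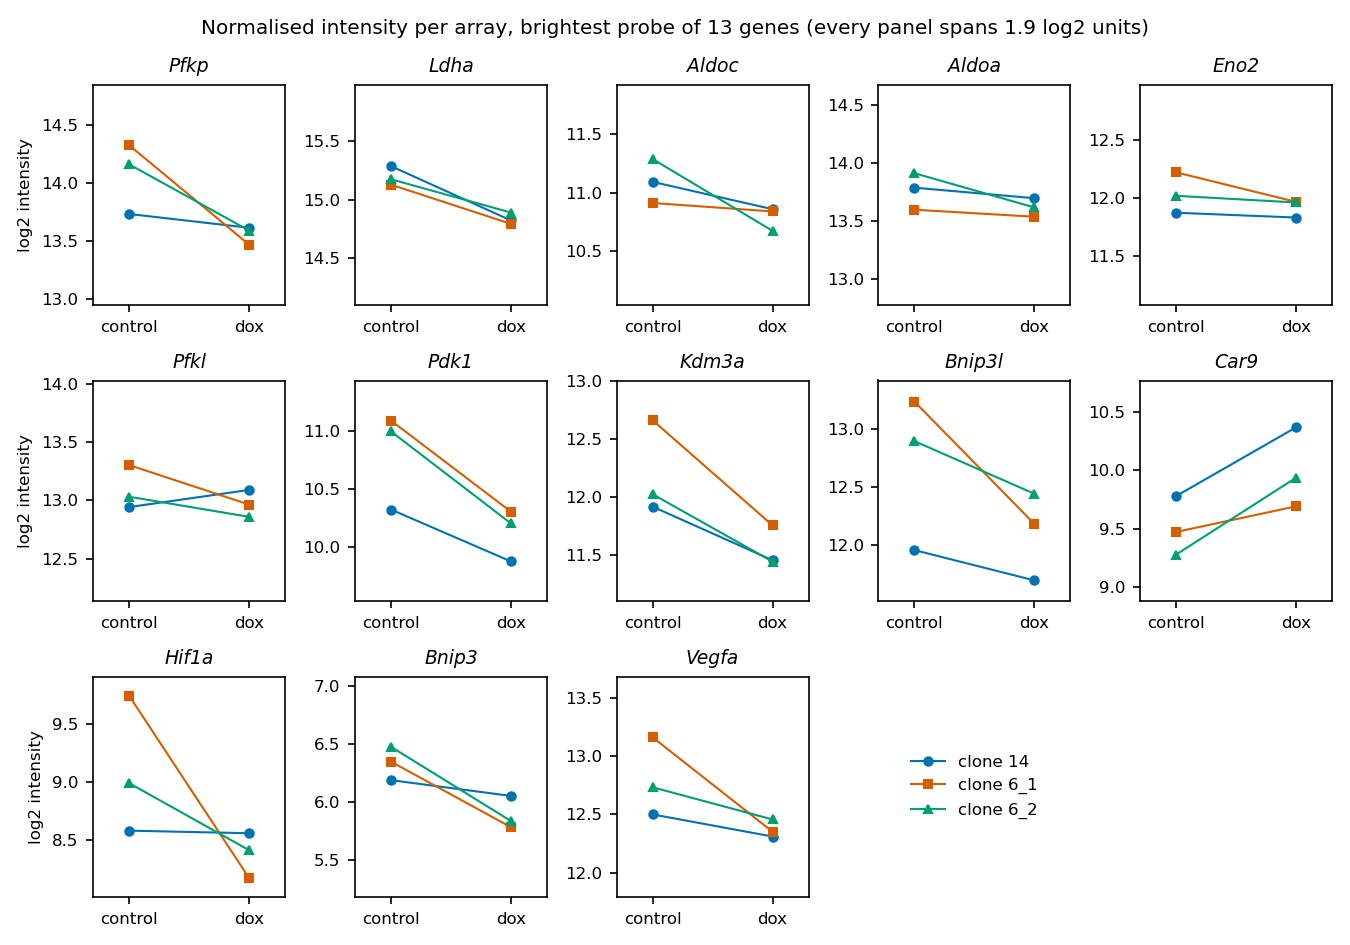
Normalised log2 intensity (y axis) on each array in control and doxycycline medium (x axis) for the brightest probe of 13 genes, with 1 line per clone; every panel spans the same range. Pdk1 and Kdm3a slope down in each clone, Car9 slopes up in each, and Hif1a moves by -0.02 in clone 14 and by -1.57 in clone 6_1.

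The carriers bring glucose into the cell and take lactate out. Slc2a1, the widespread glucose carrier, read 12.51, 12.67 and 12.63 in control and 12.62, 12.13 and 12.27 in doxycycline medium, at -0.26 (SE 0.19, adjusted p = 0.416), higher in clone 14 and lower in the others, at -0.45 without clone 14 and -0.13 without clone 6_1. The neuronal glucose carrier Slc2a3 read 0.08 (SE 0.17), with 0.15 when clone 6_1 was left out and -0.02 with median scaling. Slc16a3, the lactate exporter of glycolytic cells, read 6.998, 6.25 and 7.14 in control and 7.13, 8.06 and 6.88 in doxycycline medium. Its difference of 0.56 (SE 0.34, adjusted p = 0.350) rested on clone 6_1 at 1.81, against 0.13 in clone 14 and -0.26 in clone 6_2. Without clone 6_1 it was -0.07. Without clone 6_2 it was 0.97 and passed (limma, adjusted p = 0.0498), in a fit whose prior degrees of freedom were infinite.

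Among the kinases Pdk1 had the smallest p of all members. It phosphorylates pyruvate dehydrogenase and is a known target of the hypoxia factor. Its brightest probe (ILMN_1229318) read 10.32, 11.09 and 10.99 in control and 9.88, 10.30 and 10.20 in doxycycline medium. Each doxycycline array was below every control array, by -0.45, -0.78 and -0.79 within clones. The difference of -0.67 (SE 0.17, 95% interval -1.06 to -0.28) did not pass (limma, adjusted p = 0.103). The other Pdk1 probe (ILMN_1247533) was detected on each control array and on no doxycycline array, from a mean of 6.37 to 5.52, which is at least 1.13-fold lower (adjusted p = 0.0964, tested through the control arrays alone). Pdk3 read 9.94, 9.84 and 9.74 against 9.77, 9.80 and 9.93, a difference of 0.00 (SE 0.17, 95% interval -0.39 to 0.38).

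Most hypoxia genes read lower with doxycycline. Of 12 measured genes it was 10 (10 with median scaling and 9 with cyclic loess), 8 of them in all clones, and the median difference was -0.37, with a range of -0.72 to 0.49. The 10, the 8 and the medians over all 12 genes hold Bnip3, tested through the control arrays alone, so its direction supports nothing. The 10 also hold Mxi1, at -0.00039 and without a stable sign. When only probes above background on all 6 arrays were kept, Bnip3 and Egln3 dropped out. Of the 10 genes left 9 read lower, Mxi1 among them, with a median of -0.37. The difference between the hypoxia genes and the enzymes was not tested. Adjusted over all probes 0 passed, and 7 of the 12 had an unadjusted p under 0.05 (58.3%, against 21.6% of all genes by brightest probe). Of these 6 were lower, with Bnip3 tested through the control arrays alone, and 1 was higher, Car9. By clone the median was -0.21 (14), -0.60 (6_1) and -0.31 (6_2), and it was -0.27 when clone 6_1 was left out. Set against the mean of all 6 arrays, the group's median was highest on the control array of clone 6_1, at 0.27, and lowest on the doxycycline array of the same clone, at -0.24. The 3 control arrays, which also had more probes above background, stood at 0.03 to 0.27 and the 3 doxycycline arrays at -0.24 to -0.12. The part of the number of detected probes in this order was not tested.

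**Figure D3:**
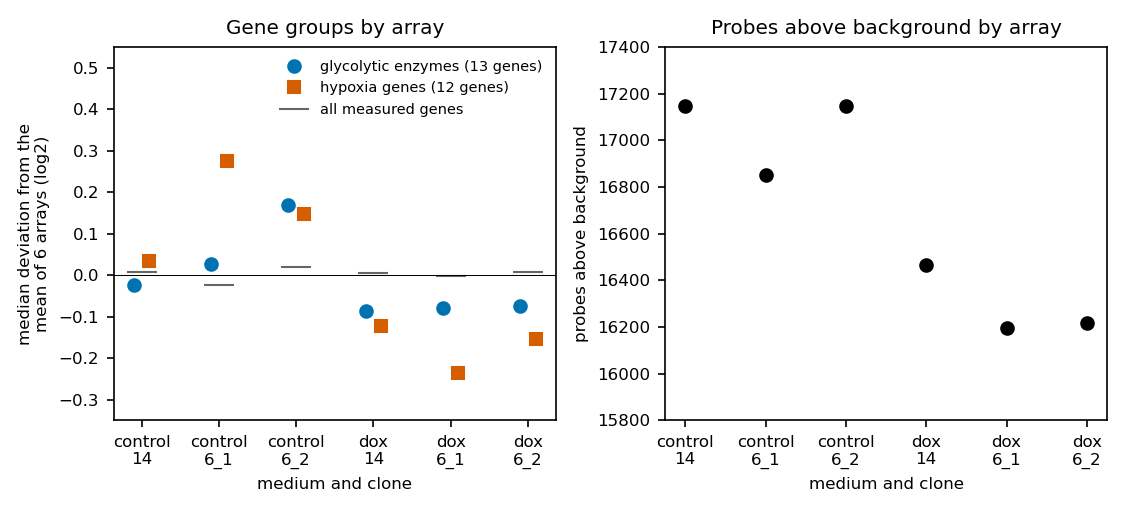
Left, median deviation from the mean of 6 arrays (y axis, log2) for 13 enzyme genes, 12 hypoxia genes and all measured genes on each array (x axis); right, number of probes above background on each array, on an axis that does not start at 0. The hypoxia genes run from 0.27 on the control array of clone 6_1 to -0.24 on its doxycycline array, and the doxycycline arrays have 16196 to 16464 probes above background against 16851 to 17149. The 12 hypoxia genes include Bnip3, tested through the control arrays alone.

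In oxygen sensing, Hif1a had the widest spread between clones. Its brightest probe (ILMN_2852034) read 8.58, 9.74 and 8.99 in control and 8.56, 8.17 and 8.41 in doxycycline medium. The control arrays ranged widely, and clone 14 was level at -0.02 while clone 6_1 differed by -1.57 and clone 6_2 by -0.58. The fitted difference was -0.72 (SE 0.27, adjusted p = 0.174), and -0.30 without clone 6_1. Without clone 14 it was -1.07 and passed (limma, adjusted p = 0.0133), again with infinite prior degrees of freedom. The other tested Hif1a probe (ILMN_2511256) read 6.98, 7.17 and 7.24 in control and 7.06, 7.27 and 7.35 in doxycycline medium, at 0.09 (SE 0.16), so the probes did not give the same direction. Egln1, the main hydroxylase that marks Hif1a, read lower on all 3 probes, at -0.10, -0.35 and -0.34 (adjusted p from 0.244 to 0.744), and its brightest at -0.19 without clone 6_1, with overlap between the media on each. Egln3, a hydroxylase induced by hypoxia, lay near background and read 0.33 (SE 0.24), with 0.98, 0.33 and -0.33 in clones 14, 6_1 and 6_2, with 0.00 when clone 14 was left out and 0.65 when clone 6_2 was.

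Kdm3a, a histone demethylase induced by hypoxia, had the smallest p of the targets. It read 11.92, 12.66 and 12.02 in control and 11.46, 11.76 and 11.44 in doxycycline medium on its brightest probe (ILMN_2707895). The media did not overlap, and the difference of -0.65 (SE 0.17, 95% interval -1.04 to -0.25) did not pass (limma, adjusted p = 0.111). Its 2 other tested probes read -0.38 (SE 0.20) and -0.77 (SE 0.23), and without clone 14 the latter was -1.10 (adjusted p = 0.0105).

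Bnip3 and Bnip3l are receptors that mark mitochondria for removal. Bnip3l read 11.96, 13.24 and 12.90 in control and 11.70, 12.19 and 12.44 in doxycycline medium, a difference of -0.59 (SE 0.20, adjusted p = 0.150) that was -0.36 without clone 6_1. The media overlapped, because clone 14 in control medium lay below clones 6_1 and 6_2 in doxycycline medium. Bnip3 was detected on each control array, at 6.19, 6.35 and 6.47, and on no doxycycline array, which is at least 1.10-fold lower (adjusted p = 0.195, tested through the control arrays alone).

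Vegfa, the growth factor of blood vessels, read 12.50, 13.16 and 12.73 in control and 12.31, 12.35 and 12.46 in doxycycline medium on its brightest probe. The media did not overlap, at a difference of -0.43 (SE 0.19, adjusted p = 0.223) that was -0.23 without clone 6_1, while the other tested probe overlapped at -0.21 (SE 0.20). P4ha1, a prolyl hydroxylase of collagen, read -0.41 (SE 0.18, or -0.25 without clone 6_1) and -0.18 (SE 0.17) on its probes. Ndrg1, a stress-induced cytosolic protein, read -0.32 (SE 0.17) and -0.43 (SE 0.18), both with no overlap between the media. The ankyrin repeat gene Ankrd37 read -0.17 (SE 0.18), with 0.16 in clone 6_1, -0.34 without that clone and -0.06 without clone 6_2, and Mxi1, an antagonist of Myc, 0.00 (SE 0.17).

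Car9, the cell surface carbonic anhydrase often used as a marker of hypoxia, was the only target of the 9 measured that read higher on its brightest probe. That probe (ILMN_2874084) read 9.78, 9.47 and 9.28 in control and 10.37, 9.69 and 9.94 in doxycycline medium, at 0.59, 0.22 and 0.66 within clones. The difference of 0.49 (SE 0.18, 95% interval 0.09 to 0.89) did not pass (limma, adjusted p = 0.164). Its other probes read 0.38 (SE 0.18) and 0.24 (SE 0.17), so all 3 were higher.

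Probes of one gene gave a check on these values. Of 16 genes with 2 or 3 tested probes, 9 had all probes on one side of 0, with 7 lower (Egln1, Kdm3a, Ndrg1, P4ha1, Pdk1, Pfkp and Vegfa) and 2 higher (Car9 and, without a stable sign over the clones left out, Pfkm). For Pdk1 this is no check, because its dimmer probe was tested through the control arrays alone and had to differ. The other 7 had probes of both signs: Hif1a, Hk1, Pfkl, Pgam1, Pgk1, Pkm and Tpi1. The span between a gene's probes was 0.82 for Hif1a, 0.46 for Hk1 and 0.39 for Kdm3a, and 0.10 for Pfkp.

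**Figure D4:**
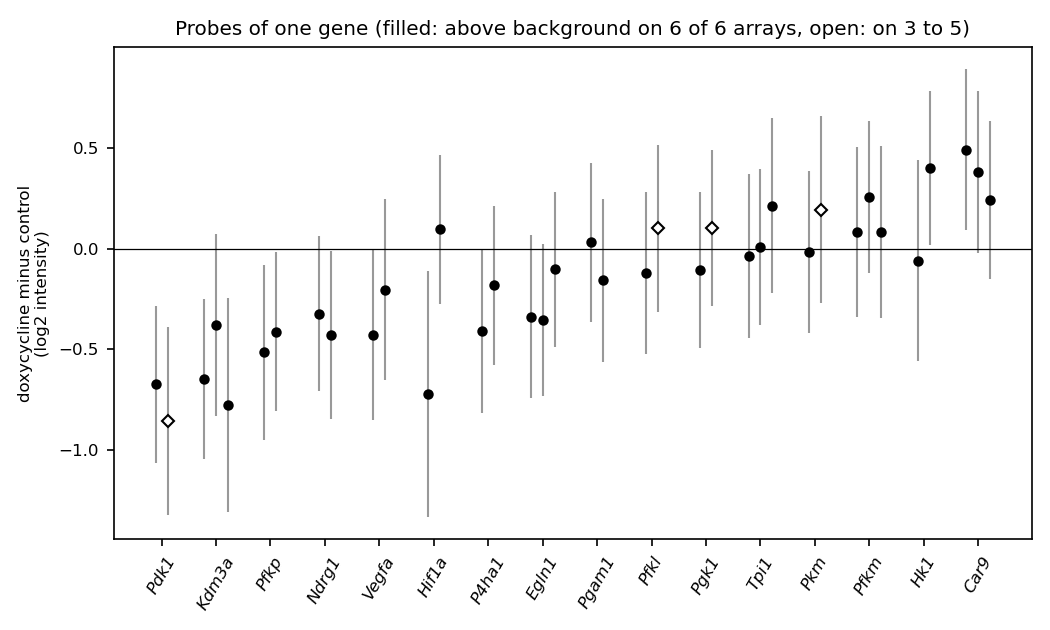
Difference between the media (y axis, log2 intensity) with its 95% interval for each tested probe of the 16 genes with more than 1 (x axis), brightest probe first. Probes of Pdk1, Kdm3a and Pfkp all lie below 0 and those of Car9 above it, while the Hif1a probes read -0.72 and 0.09. The dimmer Pdk1 probe was tested through the control arrays alone, so its side of 0 is no check.

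The clones were compared next, over both media. For the members 0 of 51 probes passed between any pair of clones, where 0.136% of all probes passed for clone 6_1 against 14, 0.142% for 6_2 against 14 and 0 of 16902 for 6_2 against 6_1 (0.166% for any pair). At an unadjusted p under 0.05 in limma stood 11, 7 and 2 member probes in these comparisons, or 21.6%, 13.7% and 3.92%, against 15.6%, 10.7% and 2.67% of all probes. Pkm, which makes pyruvate, had the smallest p: its brightest probe (ILMN_2756041) read 12.24 and 12.50 on the arrays of clone 14 and 13.15 to 13.44 on the other 4. It was higher by 0.95 (SE 0.22, adjusted p = 0.118) in clone 6_1 and by 0.82 (SE 0.22, adjusted p = 0.230) in clone 6_2 than in clone 14. Its dimmer probe read 0.83 and 0.77 higher. Bnip3l was higher by 0.88 (SE 0.24, adjusted p = 0.158) and 0.84 (SE 0.24, adjusted p = 0.258). Both arrays of clone 14 lay below the other 4 for Bnip3l, Eno2, Pkm and Slc2a3, which is 4 of 30 genes (13.3%, against 11.6% of all genes), and above them for none (against 11.8%).

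Other genes of these pathways were counted from 5 further lists, with 56 of 104 genes measured by their brightest probe. Of the 56, 34 read lower and 22 higher, with a median difference of -0.10, and 0 passed in limma, with 11 at an unadjusted p under 0.05 (19.6%, against 21.6% of all genes). Among other genes of glycolysis and gluconeogenesis 5 of 10 read lower, with the smallest p for the fructose bisphosphatase Fbp2 at -0.53 (SE 0.17) and the glycerol phosphate dehydrogenase Gpd2 at -0.46 (SE 0.17). Of 7 genes of pyruvate entry 6 read lower, led by Pdpr, a regulator of the pyruvate dehydrogenase phosphatase, at -0.48 (SE 0.19) and the phosphatase Pdp1 at -0.40 (SE 0.19). Among 5 other carriers, Slc2a9, a urate and sugar carrier, was detected on no control array and on each doxycycline array, and was at least 1.53-fold higher (adjusted p = 0.0574, tested through the doxycycline arrays alone), and Emb, a chaperone of lactate carriers, read -0.67 (SE 0.17, adjusted p = 0.102).

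Of 12 other genes of oxygen sensing 7 read lower. Cited2, which competes with the hypoxia factor for its coactivator, read 11.51, 11.29 and 11.50 in control and 10.82, 10.58 and 10.84 in doxycycline medium. The clones differed little in this, at -0.68, -0.71 and -0.65, and the difference of -0.68 (SE 0.16) did not pass (limma, adjusted p = 0.0961). Its other probes read -0.42 and -0.49, and both were higher with doxycycline in clone 6_1. Elob, a subunit of the ubiquitin ligase that removes Hif1a, read 0.47 (SE 0.17). Of 23 other hypoxia targets 13 read lower, with the smallest p for the lysyl hydroxylase Plod2 at -0.76 (SE 0.20, adjusted p = 0.111) and the glycogen synthase Gys1 at -0.56 (SE 0.18, adjusted p = 0.139, or -0.17 on its other probe), and their median was -0.11. In clones 14, 6_1 and 6_2 that median was 0.01, -0.27 and -0.13.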

How the data were processed

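Expression was measured on 6 Illumina arrays, 3 per medium and 1 per clone and medium. The deposited table holds, per the file headers, scanner signals as intensity values on a linear scale, and detection p-values that stand beside them. The authors also deposited processed intensity values, of unstated normalisation, with array medians of 134.1 to 134.2. They kept the rank order of the scanner signals. The submitters' processing notes name GenomeStudio and BeadStudio. No column belonged to another series (0).

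Signals were normalised with neqc of limma 3.58.1 in R 4.3.3 (normexp background from the detection p-values, offset 16, quantile normalisation, log2). Folds near background are understated by the offset. Probes with detection p under 0.01 on at least 3 of 6 arrays were kept, 16902 of 45281. The annotation gives 34885 probes 1 symbol, 18 several and 10378 none. Symbols were matched to it by Entrez number through the GRCm38.p6 gene table.

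The comparison of media used lmFit with a block for clone and then eBayes, on 2 residual and 6.95 prior degrees of freedom, two-sided, adjusted by Benjamini-Hochberg over all kept probes at 0.05; from it came the 3 clone differences too. The block is used because same-named arrays are of 1 clone. Deviations from group means correlated at 0.538, -0.0211 and 0.139 within clones 14, 6_1 and 6_2. Across clones, control 6_1 correlated with doxycycline 6_2 at 0.426 and control 6_2 with doxycycline 6_1 at 0.229. Both are higher than the values within clones 6_1 and 6_2, and the other values across clones were -0.538 to -0.126. The pairing, and each difference given for clone 6_1 or 6_2, thus rests on the labels. "At least" folds set the bright group against, per array, the higher of the lowest normalised value above background (5.97 to 6.22) and the probe's own. The brightest kept probe stood for a gene. Values are given for each member called and for the 6 genes of smallest p among the enzymes and among the hypoxia genes, and for the 2 of smallest p in each further list; other values were chosen after they were seen. The members and lists were chosen with earlier results of these data known. The fit was tested on simulated data. Alternatives were other normalisations, filters and priors, no block, leaving out each clone, and a gene's mean probe. The number of arrays limits the precision.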

Additional observations from a re-analysis of the deposited data

How the results depend on the processing

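No setting that kept all 3 clones called a member probe by medium or between clones. Without clone 14, 6_1 or 6_2 the member count ranged from 0 to 3 and the count over all probes from 78 to 717. The fits without clone 14 and without clone 6_2 had infinite prior degrees of freedom, so that every probe shared 1 variance. The 3 probes called without clone 14 were of Pdk1, Hif1a and Kdm3a, and the 1 called without clone 6_2 was of Slc16a3. The Pdk1 probe called was the dim one, tested through the control arrays alone, so its call supports nothing. Without clone 14 the brightest Pdk1 probe did not pass (limma, adjusted p = 0.0957). Over all probes 53 passed by medium, against 165 with median scaling, 117 with a trended and robust prior, 33 with no replicate block and 1 with no filter on dim probes. Between clones 6_1 and 14 the count was 23, against 206 with median scaling, 36 with the trended prior and 6 with no filter, and between clones 6_2 and 14 it was 24, against 82 with median scaling and 5 with no filter. The cause of these shifts was not tested.

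The median of the enzymes was -0.11, and it was -0.00042 with median scaling and -0.24 with the trend of the change with gene span removed, an alternative added after the data were seen. Change and genomic span had a Spearman correlation of -0.44 across 9183 genes, which are not independent. The enzyme genes are short, with a median span of 13.4 kb against 22.7 kb. The hypoxia genes are long, with a median span of 31.7 kb, and longer genes tended to read lower. With the trend removed the hypoxia median was -0.36. The median of the hypoxia genes stayed within 1 SD of the clone medians (0.20) in each alternative. It ran from -0.50 without clone 14 to -0.27 without clone 6_1, so this margin is wide against the main value of -0.37. For the enzymes the same SD was 0.075, so the enzyme and hypoxia medians were held to unlike margins. The brightest probes of 13 genes were followed through the alternatives. These genes were chosen for the smallest p between the media within their groups, in the same data. A turned sign was thus less likely for them from the start. They include Bnip3, tested through the control arrays alone, whose direction supports nothing. Among the 13 the probe of Aldoa alone turned its sign, to 0.0198 with median scaling, and that of Hif1a alone passed in an alternative. Of the other 17 genes 11, Pfkm among them, turned the sign of their brightest probe in at least 1 setting, so their directions are not stable. Because of this choice, the contrast between the 13 and the 17 does not show that the 13 are robust. Near-background probes, such as the dim probes of Pdk1 and Bnip3, are limited by signal over background.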
